A study of Mus musculus with 15 samples.

Results

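The proteasome genes described here are the 46 rows, of 9666 in the expression table, whose mouse gene name begins with Psma, Psmb, Psmc, Psmd, Psme, Psmf or Psmg and a number. They were measured by RNA sequencing in ventricular cardiomyocytes, the contracting muscle cells of the lower heart chambers, isolated from wild-type C57BL/6 mice. The libraries came from mice at postnatal day 1 (P1, n = 4), at postnatal day 3 (P3, n = 4) and at 8 to 12 weeks of age (adult, n = 7), and the study used these ages in a search for mediators of heart muscle regeneration. No group carried an allele or a treatment. The labels do not say whether libraries came from separate animals, pools or litters, so a p-value here measures only the spread between these libraries. Expression is given as RPKM, reads per kilobase of transcript per 1000000 reads.

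The proteasome is the protease complex that degrades proteins tagged with ubiquitin. Its 20S core is a barrel of alpha rings, which form the gates, around beta rings, which hold the active sites. The 19S regulatory particle caps the barrel: the ATPases of its base unfold the substrate and thread it into the core, and its lid removes the ubiquitin chain. Dedicated assembly factors build the core and the base and are absent from the finished enzyme, and alternative activators can replace the 19S cap. In heart muscle the ubiquitin-proteasome system is known for the turnover of sarcomere proteins and for removing damaged proteins.

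The 46 genes comprised 7 alpha subunits, 4 beta subunits without an active site, 3 catalytic beta subunits, 1 immunoproteasome subunit, 6 ATPases, 3 other subunits of the base, 8 lid subunits, 7 assembly factors, 5 activator genes and Psmf1, which encodes the regulator PI31. The remaining gene, Psmc3ip, matches by name only: its product is a partner protein of meiotic recombination and no subunit of the proteasome. The 20S and 19S subunits together numbered 31 and are called core and cap subunits below. Psma8, Psmb8, Psmb9 and Psmb11 were not analysed here. All 46 genes passed the expression filter, which kept 9389 genes with 1 RPKM or more in 4 or more libraries. Psme2 and Psme2b are near-identical copies, so their reads may have been divided between them in counting, and several subunits have processed pseudogenes.

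The labelled cell type was checked against marker genes. Of 8 cardiomyocyte markers all were listed, and their summed level was 4821 to 11540 RPKM in P1 libraries, 550.4 to 4777 RPKM in P3 libraries and 14720 to 28150 RPKM in adult libraries. The 8 listed of 10 endothelial markers summed to 198.1 to 468.5 RPKM in P1, 670.1 to 1607 RPKM in P3 and 2.37 to 198.5 RPKM in adult libraries. The 4 listed of 8 fibroblast markers summed to 158.2 to 1331, 367.1 to 791.4 and 0.917 to 68.5 RPKM at P1, at P3 and in adults, and the 2 listed of 6 mural cell markers to 10.01 to 17.8, 12.0 to 40.4 and 20.9 to 77.0 RPKM. Markers of immune, erythroid and epicardial cells were not analysed here. P3 replicate 1 stood apart from its group, with the highest cardiomyocyte sum (4777 RPKM against at most 1048 RPKM in the other P3 libraries) and the lowest endothelial sum. P1 replicate 1 had a fibroblast sum of 1331 RPKM, against 158.2 to 193 RPKM in the other P1 libraries, and the lowest P1 cardiomyocyte sum. Adult replicate 4 had the highest adult sum of every list, cardiomyocyte markers included (28150 RPKM against at most 21250 RPKM in the other adult libraries), with 198.5 against at most 104.3 RPKM for endothelial markers, and the highest adult sum over all listed genes (280112 against at most 195003 RPKM). Endothelial sums were thus higher in every P3 library than in any P1 or adult library, and fibroblast sums were lower in every adult library than in any neonatal one. Between P1 and P3 the fibroblast and mural sums overlapped, and no endothelial, fibroblast or mural marker was called (calls are defined below). Cardiomyocyte sums were lower in every P3 library than in any P1 library, and 6 of the 8 markers were called lower at P3 (75%, beside 5.31% of all genes). The part of these differences in the results was not tested. In bulk RNA, fewer cells of a type and less RNA per cell cannot be told apart.

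As deposited, the proteasome genes were lower in adult than in neonatal libraries, as most genes were. In adult against P1 libraries 39 of the 46 genes (84.8%) were called lower and 0 higher, where a call is an adjusted p under 0.05 in limma with an absolute log2 change of at least 1. Over all 9389 tested genes, 62.7% were called lower and 4.32% higher in that comparison. In adult against P3 libraries 33 of the 46 genes (71.7%) were called lower and 0 higher, beside 62.7% lower and 9.16% higher over all genes. The share called lower, as deposited, lay above the background in both comparisons, by more against P1 than against P3. Against P3 the size of this excess depended on which libraries were included. Without P3 replicate 1, 29 genes (63%) were called lower against P3, beside 61.8% of all genes. Without adult replicate 4 the count was 38 genes (82.6%), beside 63.8% of all genes, and without both libraries it was 33 (71.7%), beside 62.7%.

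The median log2 change of the 46 genes was -1.59 against P1, beside -1.36 over all genes, and -1.41 against P3, beside -1.48 over all genes. The proteasome genes differed less among themselves than genes in general did: the SD of their log2 changes was 0.553 against P1 and 0.586 against P3, beside 1.25 and 1.63 over all genes. Their median level stood above the median gene of the library by a log2 of 3.04 to 3.26 at P1, 2.47 to 3.34 at P3 and 2.77 to 3.24 in adults. No comparison with genes of like level was made, for these spreads or for the shares called. Every adult library lay below every P1 library for 38 proteasome genes (82.6%), beside 65.1% of all genes, and below every P3 library for 29 genes (63%), beside 64.3% of all genes. The histograms of log2 changes show this narrow peak inside the wider distribution of all genes.

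**Figure D1:**
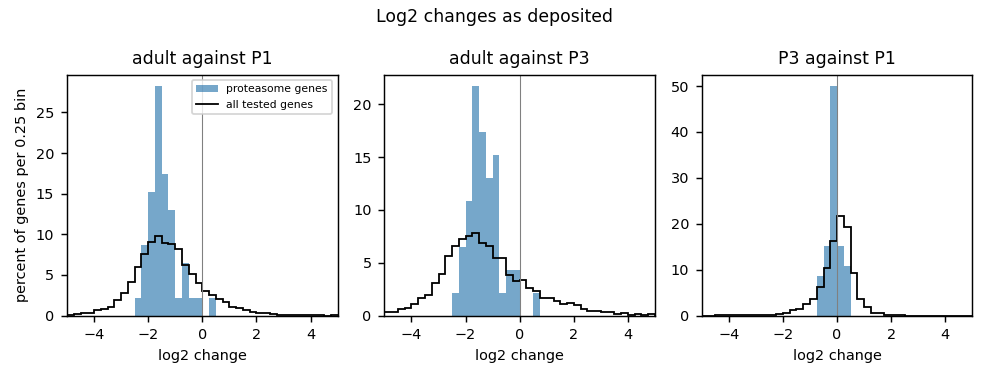
Histograms of log2 change (x axis, bins of 0.25) for the 46 proteasome genes (filled) and all 9389 tested genes (line) in adult against P1, adult against P3 and P3 against P1, as percent of genes (y axis). In both adult comparisons the filled peak lies below 0 near the median of all genes, -1.36 against P1 and -1.48 against P3, and is narrower than the line; with each library centred on its median gene both would sit around 0.

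Because the median gene itself was lower in adult libraries, each library was also centred on its median tested gene, and changes on that second scale are called relative to the median gene. On it, 0 proteasome genes were called lower in adults in either comparison, while 13.7% of all genes were called lower against P1 and 19.1% against P3. Higher calls numbered 3 against P1 (6.52%, beside 21.6% of all genes) and 5 against P3 (10.9%, beside 27.1%), so both shares lay below the background. The median relative change of the 46 genes was -0.14 against P1 and 0.14 against P3, beside 0.09 and 0.07 over all genes. Whether proteasome genes were called lower in adults therefore depended on the scale. The centring shifts all genes of a library alike, so the order of the genes by their change is the same on both scales.

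The 31 core and cap subunits had a median level of 95.9 to 112.9 RPKM in P1 libraries, 67.2 to 134.5 RPKM in P3 libraries and 24.3 to 50.2 RPKM in adult libraries. No adult library reached a neonatal one. On the centred scale the same median stood at a log2 of 3.36 to 3.57 in P1, 2.76 to 3.68 in P3 and 3.02 to 3.59 in adult libraries, and all 3 ranges overlapped. As a share of all listed RPKM, the 31 subunits made up 1.04% to 1.21% in P1, 0.940% to 1.26% in P3 and 0.582% to 0.657% in adult libraries, again with every adult library below every neonatal one. P3 replicate 1 was the highest P3 library for 40 of the 46 genes, and P3 replicate 4 the lowest for 33. P3 replicate 1 had the highest cardiomyocyte marker sum of its group and the highest summed RPKM over all listed genes (321035). P3 replicate 4 had the lowest of both (228162 for all listed genes). Adult replicate 4 was the highest adult library for 40 of the 46 genes, and for 29 relative to the median gene. The shares of all genes for which these libraries were highest or lowest were not computed, so the counts are not results about proteasome genes. Adult replicate 4 also had the smallest estimated sequencing depth, 6280000 reads, beside 9770000 to 17200000 reads in the other adult libraries.

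**Figure D2:**
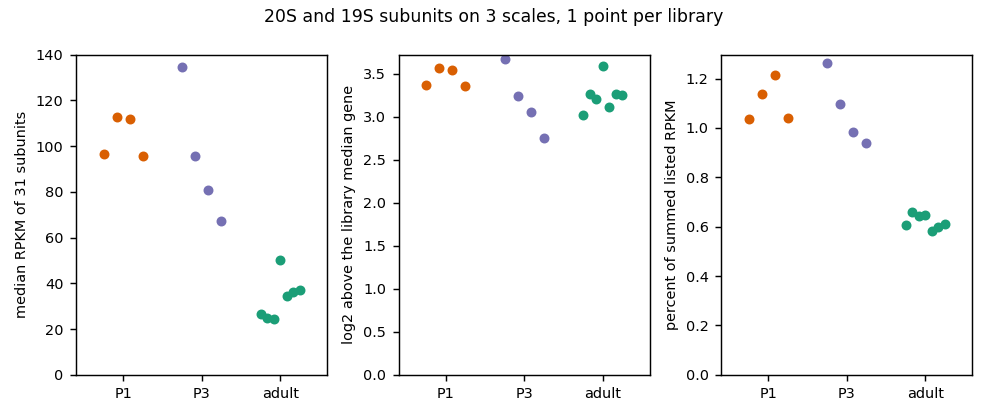
Level of the 31 core and cap subunits in each library (1 point per library, grouped by age) as median RPKM, as log2 above the library's median gene and as percent of summed listed RPKM. Adult points lie below all neonatal points in the left and right panels (24.3 to 50.2 RPKM and 0.582% to 0.657%), and overlap them in the middle panel (3.02 to 3.59).

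Among the alpha subunits, which form the outer rings and the gate of the core, 7 of 7 were called lower in adult than in P1 libraries and 6 of 7 lower than in P3 libraries, with median log2 changes of -1.38 and -1.22. The counts of this and the other role groups stand beside the 62.7% of all genes called lower in each comparison. The largest fall was that of Psma5. Psma5 had 95.7, 112, 112 and 87.4 RPKM in the P1 libraries, 136, 87.6, 76.0 and 55.1 RPKM in the P3 libraries, and 16.3 at the lowest, 19.1 at the median and 26.1 at the highest in the adult libraries. Every adult library lay below every neonatal one. The log2 change of Psma5 was -2.33 ± 0.21 (adjusted p = 1.5e-08) against P1 and -2.06 ± 0.21 (adjusted p = 4.5e-08) against P3. After centring it was -0.88 against P1 (adjusted p = 0.0013), the lowest of the 46 genes on that scale but short of the fold threshold. Psma1 had the smallest change of the alpha subunits. It averaged 108 ± 6.95 RPKM in P1 and 96.1 ± 31.6 RPKM in P3 libraries (SD, n = 4 each) and 48.7 ± 9.28 RPKM in adult libraries (SD, n = 7). Its log2 change was -1.15 ± 0.21 (adjusted p = 4.3e-05) against P1 and -0.94 ± 0.21 (adjusted p = 3.3e-04) against P3, so that it missed the fold threshold in the second comparison. That call was gained without P3 replicate 3 (-1.02), P3 replicate 4 (-1.05) or adult replicate 4 (-1.03). Measured from the median gene the sign of Psma1 was reversed, at 0.30 and 0.61.

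Of the 4 beta subunits without an active site, all 4 were called lower in adults against both ages. Psmb3 had the largest log2 changes, -1.78 ± 0.27 (adjusted p = 5.9e-06) against P1 and -1.40 ± 0.27 (adjusted p = 7.8e-05) against P3, and Psmb1 the smallest, -1.25 ± 0.23 and -1.01 ± 0.23. Psmb1 averaged 53.9 ± 16.9 RPKM in adult libraries (SD, n = 7) and 125 ± 4.37 RPKM in P1 libraries (SD, n = 4). The highest adult value of Psmb1, 90.4 RPKM in replicate 4, overlapped the 2 lowest P3 libraries, at 88.1 and 83.6 RPKM. The call of Psmb1 against P3 was lost without P3 replicate 1 (-0.81) or adult replicate 1 (-0.95), 3 (-0.98) or 7 (-0.98). Against the median gene of each library the change of Psmb1 was positive in both comparisons (0.20 and 0.53), and that of Psmb3 was -0.33 and 0.14.

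The 3 catalytic subunits, Psmb5 with chymotrypsin-like, Psmb6 with caspase-like and Psmb7 with trypsin-like activity, had unequal log2 changes, and the differences between them were not tested. Psmb5 had 113, 166, 129 and 123 RPKM in the P1 libraries, 141, 103, 75.8 and 64.3 RPKM in the P3 libraries, and 31.8 at the lowest, 36.9 at the median and 82.5 at the highest in the adult libraries. All adult values of Psmb5 except 1 lay below all neonatal values, the exception being replicate 4 at 82.5 RPKM, which exceeded 2 of the P3 libraries. For Psmb5 the log2 change was -1.65 ± 0.26 (adjusted p = 1.3e-05) against P1 and -1.13 ± 0.26 (adjusted p = 6.2e-04) against P3. Psmb7 had 161, 198, 164 and 172 RPKM in the P1 libraries, 195, 124, 107 and 86.7 RPKM in the P3 libraries, and 69.2 at the lowest, 83.8 at the median and 149.9 at the highest in the adult libraries. Psmb7 had the highest mean level of the 46 genes in adults (92.3 RPKM) and in P1 libraries (174 RPKM), and ranked 5 in P3 libraries, where Psma2 led with 151 RPKM. Its adult range overlapped the P3 range and stayed below the P1 range, whose lowest value was 161 RPKM. The log2 change of Psmb7 was -0.95 ± 0.24 (adjusted p = 0.0016) against P1 and -0.45 ± 0.24 (adjusted p = 0.096) against P3, short of the call in both comparisons. Without adult replicate 4 Psmb7 was called lower against P1 (-1.07, adjusted p = 1.25e-04 by limma), as it was with adult replicates 5 to 7 alone (-1.11). Psmb6 lay between them, at -1.38 ± 0.24 (adjusted p = 4.0e-05) and -0.93 ± 0.24 (adjusted p = 0.0018). Against P3, Psmb5 lost its call without P3 replicate 1 (-0.93), and Psmb6 gained one without P3 replicate 4 (-1.10) or adult replicate 4 (-1.05). Relative to the median gene Psmb7 was called higher against P3, by 1.10 ± 0.24 (adjusted p = 5.1e-04), and the log2 changes of Psmb5 were -0.20 and 0.41. The call for Psmb7 on that scale was lost when P3 replicate 4 was left out (0.94) and with adult replicates 5 to 7 alone (0.76).

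Psmb10 encodes the subunit that takes the place of Psmb7 in the immunoproteasome, a form of the core induced by interferon and used in antigen processing. Psmb10 had 17.3, 26.7, 23.4 and 21.4 RPKM in the P1 libraries, 23.5, 11.4, 10.7 and 18.4 RPKM in the P3 libraries, and 5.46 at the lowest, 7.93 at the median and 19.2 at the highest in the adult libraries. The highest adult value, in replicate 4, exceeded the lowest P1 value and 3 of the 4 P3 values, and the second highest adult value exceeded the lowest P3 value. The log2 change of Psmb10 was -1.26 ± 0.28 (adjusted p = 4.6e-04) against P1, which was called, and -0.74 ± 0.28 (adjusted p = 0.021) against P3, which was not. The ratio of Psmb10 to Psmb7 within a library does not depend on the scaling between libraries. Its mean log2 was -2.95 ± 0.176 in P1 and -2.97 ± 0.532 in P3 libraries (SD, n = 4 each) and -3.27 ± 0.371 in adult libraries (SD, n = 7). The difference was -0.31 for adult minus P1 and -0.30 for adult minus P3, and two-sided exact permutation tests gave p = 0.145 (adjusted over the 3 comparisons, 0.436) and p = 0.327 (adjusted, 0.491). Leaving out 1 library moved the difference against P3 between -0.43 and -0.041, the last without P3 replicate 4, and the difference against P1 between -0.39 and -0.22. For P3 minus P1 it was -0.02, with an exact permutation p of 0.971. The smallest p these tests could give was 0.00303 for the adult comparisons and 0.0286 for P3 against P1.

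As deposited, all 6 ATPases and all 3 other subunits of the 19S base were called lower in adults against P1, and all but Psmc3 against P3, beside 62.7% of all genes in each comparison. On the centred scale none of the 9 base members was called in limma, and the median log2 change of the ATPases was -0.26 against P1 and 0.11 against P3. Psmc4, an ATPase whose tail docks on the alpha ring, had 93.9, 97.7, 95.3 and 87.3 RPKM in the P1 libraries, 118, 98.1, 91.2 and 74.1 RPKM in the P3 libraries, and 12.7 at the lowest, 20.6 at the median and 36.8 at the highest in the adult libraries. The adult values of Psmc4 lay far below both neonatal ranges, which overlapped each other. Its log2 change was -2.17 ± 0.24 (adjusted p = 1.2e-07) against P1 and -2.18 ± 0.24 (adjusted p = 8.7e-08) against P3, the largest among the ATPases in both comparisons. Psmc3, an ATPase whose tail opens the gate of the alpha ring, had 120.5, 153, 141 and 121 RPKM in the P1 libraries, 159.8, 112, 84.8 and 73.2 RPKM in the P3 libraries, and 47.4 at the lowest, 54.4 at the median and 99.8 at the highest in the adult libraries. Psmc3 had the smallest change of the ATPases, with log2 changes of -1.17 ± 0.24 (adjusted p = 1.8e-04) and -0.80 ± 0.24 (adjusted p = 0.0047). Psmc3 ranked 2 of 46 by mean RPKM in adults, and Psmc4 ranked 28. On the centred scale the log2 changes of the pair had opposite signs, -0.72 and -0.63 for Psmc4 and 0.28 and 0.75 for Psmc3, with 0 calls.

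The scaffold subunits Psmd1 and Psmd2 and the ubiquitin receptor Psmd4 of the base changed almost equally. Psmd1 averaged 67.4 ± 4.89 RPKM in P1 and 74.0 ± 15.2 RPKM in P3 libraries (SD, n = 4 each) and 22.3 ± 3.31 RPKM in adult libraries (SD, n = 7), with log2 changes of -1.59 ± 0.18 (adjusted p = 1.8e-07) and -1.70 ± 0.18 (adjusted p = 5.6e-08). The log2 changes of Psmd2 were -1.68 ± 0.20 and -1.65 ± 0.20, and those of Psmd4 were -1.63 ± 0.26 and -1.53 ± 0.26.

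All 8 lid subunits were called lower in adults against both ages, with median log2 changes of -1.77 and -1.63. Psmd11, a lid subunit that also contacts the alpha ring, had 58.2, 68.7, 73.3 and 56.6 RPKM in the P1 libraries, 81.3, 76.2, 53.1 and 37.0 RPKM in the P3 libraries, and 9.72 at the lowest, 16.8 at the median and 19.8 at the highest in the adult libraries. No adult value of Psmd11 came within the neonatal ranges. Its log2 change was -2.10 ± 0.25 (adjusted p = 2.7e-07) against P1 and -1.99 ± 0.25 (adjusted p = 4.4e-07) against P3. Psmd8, a lid subunit whose yeast counterpart is the last to join the lid, had 117, 117, 95.3 and 95.9 RPKM in the P1 libraries, 156, 176, 115 and 85.9 RPKM in the P3 libraries, and 21.7 at the lowest, 29.3 at the median and 50.2 at the highest in the adult libraries. Psmd8 was the lid member with the largest fall against P3, with a log2 change of -2.11 ± 0.25 (adjusted p = 2.3e-07), and -1.83 ± 0.25 (adjusted p = 1.7e-06) against P1. Psmd12 had the smallest log2 changes, -1.38 ± 0.21 (adjusted p = 7.1e-06) and -1.17 ± 0.21 (adjusted p = 4.2e-05), and its call against P3 was lost without P3 replicate 1 (-0.97). Psmd14, the deubiquitinase of the lid, had log2 changes of -1.89 and -1.73. After centring the lid medians were -0.31 and -0.09, and 0 of 8 members were called.

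**Figure D3:**
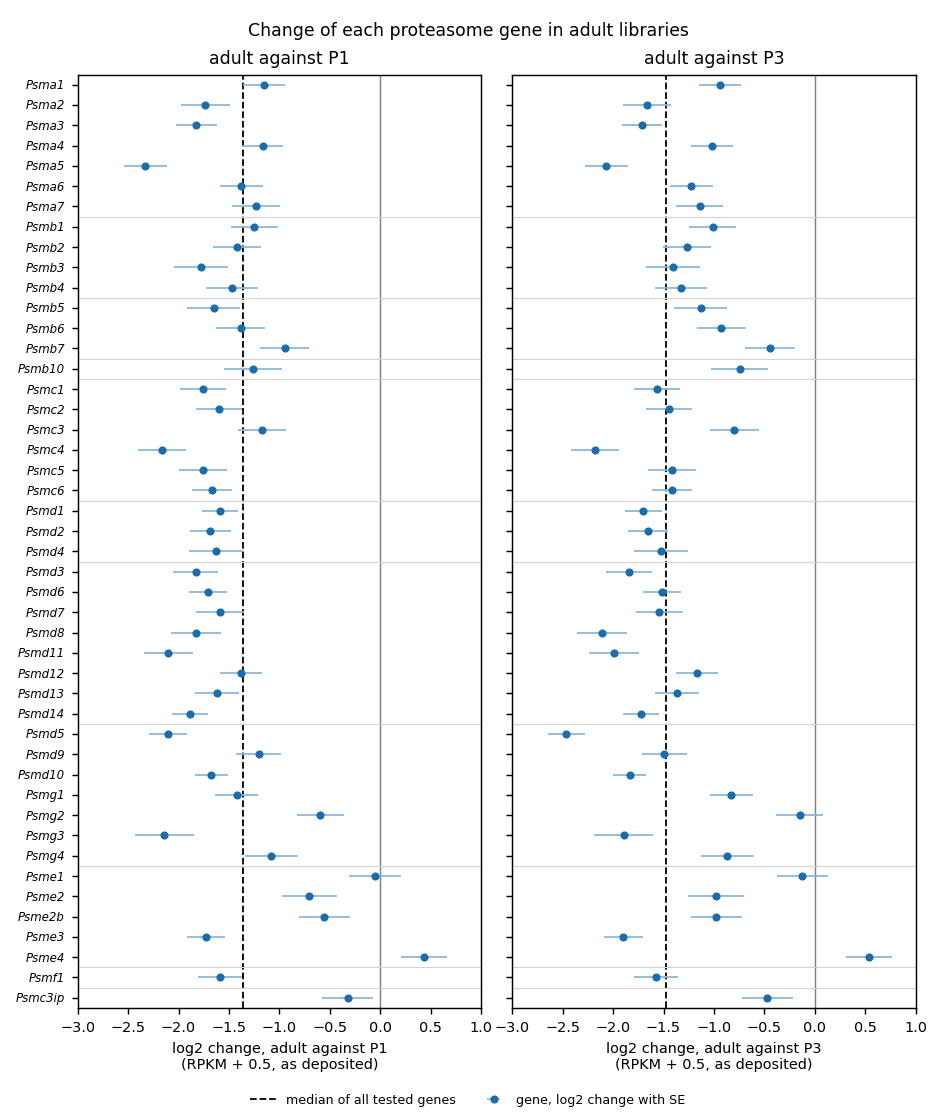
Log2 change of each proteasome gene with its SE (points and lines) in adult against P1 (left) and adult against P3 (right), ordered by role, with the median of all tested genes as a dashed line (-1.36 and -1.48). Most points lie near the dashed line; Psme4 and Psme1 lie farthest to its right, followed by Psmc3ip in the left panel and Psmg2 in the right, and Psme4 is the one gene above 0 in both panels. The remaining genes fall on either side of the dashed line. The line lies near the 0 of the scale relative to the median gene but is not the same, as all genes had median relative changes of 0.09 and 0.07.

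The assembly factors spread more widely than the subunits. Of the 7, 6 (85.7%) were called lower against P1 and 4 (57.1%) against P3, on either side of the 62.7% of all genes called in each comparison, with log2 changes that ran from -2.14 to -0.59 against P1 and from -2.46 to -0.15 against P3. Psmd5, a chaperone of the 19S base, had 17.9, 19.1, 17.5 and 15.1 RPKM in the P1 libraries, 30.2, 29.0, 16.4 and 17.5 RPKM in the P3 libraries, and 3.14 at the lowest, 3.65 at the median and 4.06 at the highest in the adult libraries. P3 replicates 1 and 2 stood above the other neonatal libraries, and the adult values lay in a narrow band below all of them. For Psmd5 the log2 change was -2.10 ± 0.18 (adjusted p = 7.7e-09) against P1 and -2.46 ± 0.18 (adjusted p = 6.4e-10) against P3, the largest fall of the 46 genes in the second comparison. The log2 changes of the other base chaperones were -1.20 and -1.49 for Psmd9 and -1.68 and -1.83 for Psmd10.

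Psmg1 and Psmg2 encode the partners of a heterodimer that assembles the alpha ring. Psmg1 had 20.2, 19.9, 18.3 and 18.3 RPKM in the P1 libraries, 14.7, 11.2, 13.2 and 11.1 RPKM in the P3 libraries, and 4.68 at the lowest, 6.13 at the median and 13.4 at the highest in the adult libraries. Psmg2 had 12.9, 18.6, 16.3 and 17.2 RPKM in the P1 libraries, 16.5, 9.68, 9.34 and 12.7 RPKM in the P3 libraries, and 7.91 at the lowest, 10.2 at the median and 20.3 at the highest in the adult libraries. For Psmg1 every P3 library lay below every P1 library, the only proteasome gene of which this was so (2.17% of the 46, beside 2.53% of all genes). For Psmg2 the adult and P3 ranges overlapped. The log2 change of Psmg1 was -1.43 ± 0.22 (adjusted p = 7.0e-06) against P1 and -0.83 ± 0.22 (adjusted p = 0.0017) against P3, and that of Psmg2 was -0.59 ± 0.23 (adjusted p = 0.025) and -0.15 ± 0.23 (adjusted p = 0.55). Measured from the median gene Psmg2 was called higher against P3, by 1.39 ± 0.20 (adjusted p = 6.9e-06). The call was kept in each of 14 refits, which left out a library, added a replicate block or used a subset of the adult libraries. The block gives the same log2 change as the refit with adult replicates 1 to 4, so these are not separate checks of its size. Psmg3 and Psmg4 form the second assembly heterodimer. Psmg3 averaged 13.1 ± 2.41 RPKM in P1 and 11.2 ± 3.94 RPKM in P3 libraries (SD, n = 4 each) and 2.85 ± 1.86 RPKM in adult libraries (SD, n = 7), with log2 changes of -2.14 ± 0.29 (adjusted p = 1.8e-06) and -1.90 ± 0.29 (adjusted p = 7.0e-06). Psmg4 had log2 changes of -1.08 ± 0.26 (adjusted p = 8.5e-04) and -0.87 ± 0.26 (adjusted p = 0.0046). The call of Psmg4 against P1 was lost without adult replicate 7 (-0.98), and a call against P3 was gained without adult replicate 4 (-1.06). The partners of each dimer thus had unequal log2 changes, and the difference between them was not tested.

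The activators held the genes that departed most from the rest. Psme4 encodes PA200, a nuclear activator that in mice acts in the breakdown of acetylated histones and in male germ cells. Psme4 had 17.7, 24.6, 26.0 and 21.1 RPKM in the P1 libraries, 25.7, 21.9, 17.9 and 17.8 RPKM in the P3 libraries, and 21.3 at the lowest, 28.5 at the median and 51.0 at the highest in the adult libraries. The P1 and P3 ranges nearly coincided, and the adult range began inside them and extended above them. For Psme4 the log2 change was 0.43 ± 0.23 (adjusted p = 0.084) against P1 and 0.54 ± 0.23 (adjusted p = 0.035) against P3, the only positive change among the 46 genes in either comparison and short of the fold threshold in both. Against the median gene of each library it was 1.89 ± 0.20 (adjusted p = 4.5e-07) against P1 and 2.08 ± 0.20 (adjusted p = 6.6e-08) against P3, the largest of the 46. Psme4 passed the call on that scale in each of 14 refits of either comparison. The ratio of Psme4 to the median of the 31 core and cap subunits, taken within each library, had a mean log2 of -2.21 ± 0.144 in P1 and -2.13 ± 0.196 in P3 libraries (SD, n = 4 each) and -0.11 ± 0.528 in adult libraries (SD, n = 7). The lowest adult ratio, -1.22, lay above the highest neonatal one, -1.89. By mean RPKM Psme4 ranked 35 of 46 at P1, 36 at P3 and 22 in adults.

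The size of the Psme4 change varied among the adult libraries. Adult replicates 1 to 4 held 21.3 to 28.5 RPKM and adult replicates 5 to 7 held 34.2 to 51.0 RPKM. Estimated depth was 6280000 to 11100000 reads in the first set and 16800000 to 17200000 reads in the second, and the labels give no batch. With replicates 1 to 4 alone the log2 change of Psme4 was 0.12 (adjusted p = 0.58) against P1 and 0.23 (adjusted p = 0.30) against P3, and with replicates 5 to 7 alone it was 0.85 (adjusted p = 0.00194) and 0.95 (adjusted p = 7.68e-04). Relative to the median gene the change was 1.71 and 2.12 against P1 in the first and second set, and 1.90 and 2.32 against P3, with a call in each. On that scale the sets overlapped, with Psme4 at 3.11, 3.12, 3.25 and 2.37 in adult replicates 1 to 4 and 3.23, 3.19 and 3.72 in replicates 5 to 7. Replicate 4 was the lowest adult library for Psme4 on both scales. As deposited the sets also stood apart for Psmf1 (0.963 to 1.635 and 2.457 to 2.651 RPKM) and Psmd1 (18.28 to 22.46 and 23.9 to 27.05 RPKM). The difference between the sets was not tested.

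Psme1 and Psme2 encode the alpha and beta subunits of the interferon-inducible 11S activator PA28, and the genes neighbour each other on chromosome 14. Psme1 had 43.2, 41.6, 47.7 and 46.0 RPKM in the P1 libraries, 49.9, 39.7, 46.0 and 52.9 RPKM in the P3 libraries, and 26.9 at the lowest, 41.9 at the median and 86.8 at the highest in the adult libraries. The adult libraries straddled both neonatal ranges, with replicate 4 the highest. The log2 change of Psme1 was -0.05 ± 0.25 (adjusted p = 0.85) against P1 and -0.12 ± 0.25 (adjusted p = 0.65) against P3. On the centred scale it was 1.40 ± 0.18 (adjusted p = 3.9e-06) and 1.42 ± 0.18 (adjusted p = 1.8e-06), and both calls were kept in each of 14 refits. By mean RPKM Psme1 ranked 32 of 46 at P1 and at P3 and 10 in adults. Psme2 had 35.9, 23.0, 28.6 and 24.0 RPKM in the P1 libraries, 31.2, 30.1, 30.0 and 43.9 RPKM in the P3 libraries, and 12.1 at the lowest, 14.8 at the median and 41.3 at the highest in the adult libraries. The log2 change of its partner was -0.70 ± 0.27 (adjusted p = 0.024) and -0.98 ± 0.27 (adjusted p = 0.0027), or 0.75 and 0.57 relative to the median gene, with 0 calls on either scale. Without adult replicate 4 Psme2 was called lower against P3 (-1.19), as it was without P3 replicate 1, 2 or 3 or adult replicate 5. Psme2b, the near-identical copy of Psme2 on chromosome 11, had log2 changes of -0.56 ± 0.25 (adjusted p = 0.049) and -0.98 ± 0.25 (adjusted p = 0.0015), the second called without adult replicate 4 (-1.15) or P3 replicate 2 (-1.06). The within-library ratio of Psme1 to the median core and cap subunit had a mean log2 of -1.21 ± 0.161 in P1 and -0.96 ± 0.485 in P3 libraries (SD, n = 4 each) and 0.40 ± 0.238 in adult libraries (SD, n = 7).

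Psme3 encodes PA28 gamma, the nuclear relative of the PA28 subunits, and its log2 changes lay among those of the core and cap subunits. Psme3 had 33.3, 33.8, 32.3 and 28.6 RPKM in the P1 libraries, 37.2, 46.8, 33.2 and 28.9 RPKM in the P3 libraries, and 6.67 at the lowest, 10.4 at the median and 12.1 at the highest in the adult libraries. All adult values lay below all neonatal values. For Psme3 the log2 change was -1.73 ± 0.19 (adjusted p = 1.3e-07) against P1 and -1.90 ± 0.19 (adjusted p = 2.8e-08) against P3, both called, and -0.28 and -0.35 relative to the median gene. The nuclear activators Psme3 and Psme4 therefore lay at opposite ends of the activator group. Psmf1, whose product PI31 binds the 20S core, had 5.16, 6.72, 7.24 and 6.86 RPKM in the P1 libraries, 7.94, 6.83, 4.90 and 6.19 RPKM in the P3 libraries, and 0.963 at the lowest, 1.64 at the median and 2.65 at the highest in the adult libraries. Its log2 change was -1.58 ± 0.22 (adjusted p = 2.1e-06) and -1.57 ± 0.22 (adjusted p = 2.0e-06). Psmc3ip was at the lower end of the measured range, at 1.45 ± 0.867 RPKM in P1 and 1.55 ± 0.304 RPKM in P3 libraries (SD, n = 4 each) and 1.04 ± 0.576 RPKM in adult libraries (SD, n = 7). About 6.63 to 37.2 reads per library stood behind these values, by an estimate from depth and transcript length. Its log2 change was -0.32 ± 0.25 (adjusted p = 0.24) and -0.47 ± 0.25 (adjusted p = 0.089), and 1.13 and 1.07 relative to the median gene, both called on that scale. Of 14 refits 12 kept the call of Psmc3ip against P1, which was lost without P1 replicate 2 (0.99) and with adult replicates 5 to 7 alone (0.91). Against P3 11 of 14 kept it, and it was lost without P3 replicate 3 (0.98), without adult replicate 4 (0.97) and with adult replicates 5 to 7 alone (0.86).

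**Figure D4:**
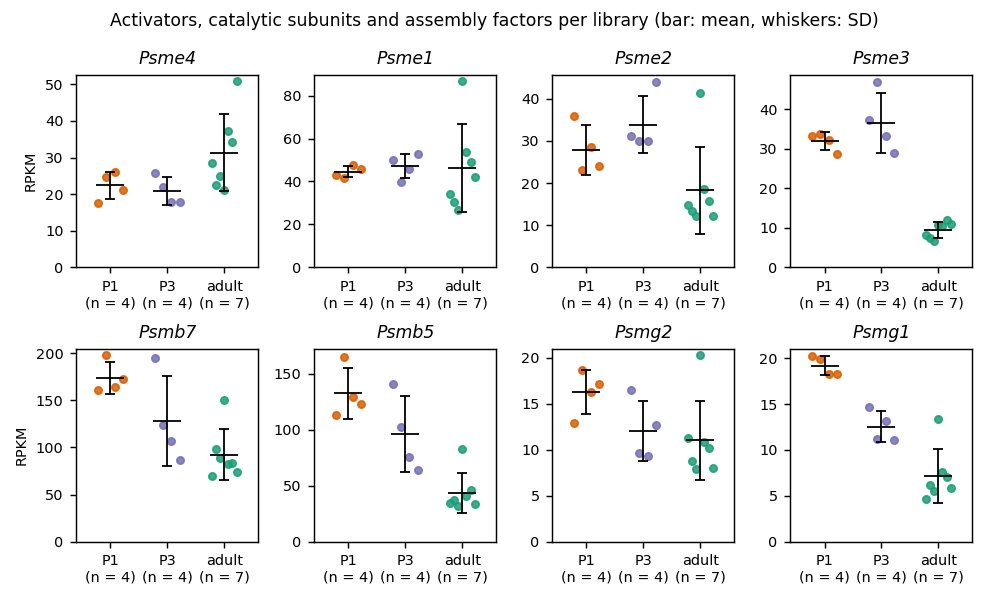
RPKM per library of the activators Psme4, Psme1, Psme2 and Psme3 (upper row) and of Psmb7, Psmb5, Psmg2 and Psmg1 (lower row) at P1 (n = 4), P3 (n = 4) and in adults (n = 7), with the mean (bar) and SD (whiskers). As deposited, the adult points of Psme4 extend above the neonatal ones, those of Psme1 straddle them and those of Psme3 all lie below them, and the highest adult point of Psme1, Psme2 and the genes in the lower row is replicate 4.

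Promoter windows, taken as the 250 bases before the annotated start in RefSeq (GRCm38.p6), are shown to compare the activators Psme4 and Psme1 with the catalytic subunit Psmb5 and the lid subunit Psmd11. The Psme4 window is chr11:30771525-30771774 on the plus strand, that of Psme1 chr14:55578244-55578493 on the plus strand, that of Psmb5 chr14:54617996-54618245 on the minus strand and that of Psmd11 chr11:80428365-80428614 on the plus strand. Each is written 5′ to 3′ on the strand of the gene, and capitals mark a match to one of 4 searched motifs.
Psme4: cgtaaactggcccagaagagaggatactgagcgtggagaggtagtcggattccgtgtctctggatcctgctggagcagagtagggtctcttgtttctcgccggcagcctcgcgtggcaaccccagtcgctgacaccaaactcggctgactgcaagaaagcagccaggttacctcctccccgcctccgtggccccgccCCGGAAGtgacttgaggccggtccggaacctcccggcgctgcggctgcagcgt
Psme1: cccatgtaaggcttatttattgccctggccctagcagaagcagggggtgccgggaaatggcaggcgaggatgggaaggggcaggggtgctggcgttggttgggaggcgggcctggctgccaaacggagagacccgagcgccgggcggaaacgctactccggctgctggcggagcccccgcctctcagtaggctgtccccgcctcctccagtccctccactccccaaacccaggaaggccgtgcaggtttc
Psmb5: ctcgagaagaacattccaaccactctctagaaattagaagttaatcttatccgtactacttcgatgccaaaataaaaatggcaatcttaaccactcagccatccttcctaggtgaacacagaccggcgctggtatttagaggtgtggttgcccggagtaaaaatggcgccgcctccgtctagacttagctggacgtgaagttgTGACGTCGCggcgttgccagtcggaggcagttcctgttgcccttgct
Psmd11: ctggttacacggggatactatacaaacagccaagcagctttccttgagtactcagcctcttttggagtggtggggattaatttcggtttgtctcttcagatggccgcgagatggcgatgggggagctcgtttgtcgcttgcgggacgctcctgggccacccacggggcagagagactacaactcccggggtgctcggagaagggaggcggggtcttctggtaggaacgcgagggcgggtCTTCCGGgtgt
The motifs, searched on both strands, were CCGGAAG, the core bound by ETS factors, TGACNNNGC, the antioxidant response type bound by Nrf1 and Nrf2, CCAAT, bound by NF-Y, and the interferon-stimulated response element. The Psme4 window held CCGGAAG from 53 to 47 bases before the start, and the Psmd11 window held it on the other strand from 11 to 5 bases before the start. The Psmb5 window held TGACGTCGC from 47 to 39 bases before the start, and the Psme1 window held no match. In a second annotation, GENCODE M21, Psme1 begins at 55578123, ahead of its window. The sequence before that start was not searched, so a motif there is not excluded. Psme4 and Psmb5 begin inside their windows in GENCODE M21, at 30771726 and 54618022. Windows were available for 39 of the 46 genes, 42 windows in all, and for 32851 windows in the genome. CCGGAAG occurred in 33.3% of the proteasome windows and 6.91% of all windows, TGACNNNGC in 11.9% and 10.2%, CCAAT in 31% and 33.8%, and the interferon-stimulated response element in 7.14% and 2.98%. The median GC content was 57.4% in the proteasome windows and 52.4% in all windows. A match describes the letters of the window and is not a binding site.

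Between P3 and P1 no proteasome gene passed the call. As deposited, 0 of the 46 genes were called in either direction by limma, beside 5.31% of all genes lower and 1.4% higher in P3, and 1 gene, Psmg1, reached an unadjusted p under 0.05 (27.5% of all genes did). The number called over all genes was 499 lower and 131 higher, and leaving out any 1 of the 8 neonatal libraries gave 60 to 889 lower and 15 to 300 higher. The median log2 change was -0.15, beside 0.09 over all genes, and 34 of the 46 changes were negative, beside 4029 of all 9389 genes. Relative to the median gene 37 of the 46 were negative, beside 4756 of all 9389 genes. Psmg1 had the largest log2 change, -0.60 ± 0.24 (adjusted p = 0.12). The catalytic subunits and Psmb10 followed, at -0.52 for Psmb5, -0.46 for Psmb6, -0.50 for Psmb7 and -0.52 for Psmb10, with adjusted p-values, by limma, of 0.27, 0.29, 0.25 and 0.3. At the other end stood Psme2b at 0.42 and Psmd5 at 0.36. After centring, 0 genes were called (1.18% of all genes higher, 7.54% lower), and Psmg1 was -0.69 with an adjusted p of 0.029, short of the fold threshold. The P3 libraries differed widely among themselves, as the values of Psmb7 above show, from 195 RPKM in replicate 1 to 86.7 RPKM in replicate 4.

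**Figure D5:**
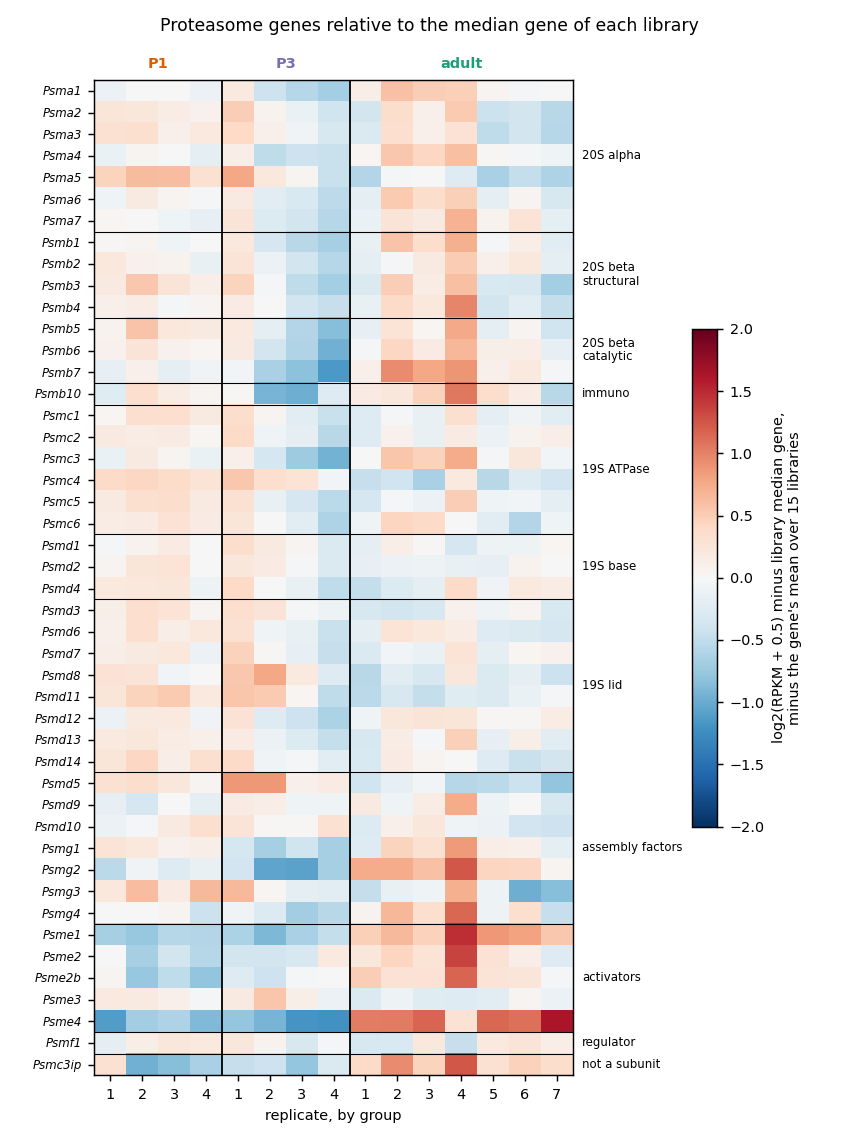
Level of each of the 46 proteasome genes in each of the 15 libraries, as log2(RPKM + 0.5) minus the library's median gene and minus the gene's mean over all libraries (colour, red higher and blue lower), with genes ordered by role. Psme4 and Psme1 are blue in every neonatal library and red in every adult library. P3 replicate 1 is redder and P3 replicate 4 bluer than the rest of P3 for most genes, and adult replicate 4 is the reddest adult column for 29 genes. The shares over all genes were not computed.

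Other genes of the pathway were counted as a list of 33, of which 29 were listed and tested. In adults 19 of the 29 (65.5%) were called lower and 0 higher against P1 (median log2 change -1.67), and likewise 19 lower and 0 higher against P3 (median -1.63). The share called lower was near the 62.7% of all genes in both comparisons. The largest changes against P3 were those of Zfand2a, a stress-induced proteasome-associated protein (-3.21 ± 0.18 (adjusted p = 4.1e-11)), Ddi2, the protease that activates Nrf1 (-2.79 ± 0.36 (adjusted p = 9.2e-07)), and Nfe2l2, which encodes the oxidative stress factor Nrf2 (-2.55 ± 0.27 (adjusted p = 7.0e-08)). Rps27a, a fusion of ubiquitin with a ribosomal protein, had a log2 change of -2.45, and the ubiquitin shuttles Ubqln2 and Ubqln1 had -2.29 and -2.22. Measured from the median gene, 3 of the 29 (10.3%) were called higher and 1 (3.45%) lower against P1, beside 21.6% and 13.7% of all genes. Against P3 6 (20.7%) were higher and 3 (10.3%) lower, beside 27.1% and 19.1%, so that all 4 shares lay below the background.

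The 3 genes of this list called higher against P1 on that scale, singled out after their values were seen, had adult levels near the neonatal ones as deposited. Nfe2l1, which encodes Nrf1, the factor that raises proteasome genes when proteasome capacity is short, had 32.8, 54.5, 55.8 and 45.6 RPKM in the P1 libraries, 51.4, 50.7, 49.2 and 46.9 RPKM in the P3 libraries, and 41.3 at the lowest, 52.3 at the median and 74.0 at the highest in the adult libraries. The 3 ranges overlapped, and the log2 change was 0.23 ± 0.21 (adjusted p = 0.3) against P1 and 0.14 ± 0.21 (adjusted p = 0.54) against P3, or 1.69 and 1.68 relative to the median gene. The gene listed as AI314180, given in the RefSeq gene table as a synonym of Ecpas, an adaptor of the proteasome, had log2 changes of -0.16 and -0.03. Ngly1, the enzyme that removes sugar chains from Nrf1, had log2 changes of -0.33 and -0.05. None of the 3 passed the test as deposited, and all 3 were called higher relative to the median gene in both comparisons.

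The interferon and antigen presentation genes, listed because Psmb10, Psme1 and Psme2 are induced with them, are given beside them. Their 11 listed members of 17 summed to 229.5 to 541.8 RPKM in P1 libraries, 582.3 to 1419 RPKM in P3 libraries and 30.2 to 291.4 RPKM in adult libraries. Every P3 library lay above every P1 and every adult library. In adults 7 of the 11 (63.6%) were called lower against P1 and 11 of 11 against P3, beside 62.7% of all genes in each. Relative to the median gene 3 were called higher and 1 lower against P1 (21.6% and 13.7% of all genes), and 0 higher and 6 lower against P3 (27.1% and 19.1%). Between P3 and P1 the median log2 change was 1.197, with 0 of 11 called. Over the same libraries the log2 change from P1 was 0.07 for Psme1, 0.28 for Psme2 and -0.52 for Psmb10. P3 replicate 4, with the highest sum of the list, had the highest P3 value of Psme1 (52.9 RPKM) and of Psme2 (43.9 RPKM), but not of Psmb10, for which replicate 1 was highest (23.5 RPKM).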

How the data were processed

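Total RNA from isolated ventricular cardiomyocytes was extracted with TRIzol and made into Illumina libraries, per the labels' protocols. Reads were aligned with HISAT2 to mm10 and handled in Partek 6.6, per the submitters' processing notes; the annotation, the counting rule and its strand setting were not given in the sources used here. The authors deposited one table of RPKM values (9666 rows, 15 libraries), in which every value is above 0.1 RPKM. One gene name occurs on 2 rows. Summed RPKM per library ran from 145050 to 321035.

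The test was limma 3.58.1 (R 4.3.3) on log2(RPKM + 0.5), so that a log2 change understates the change of a low gene. It used genes with 1 RPKM or more in 4 or more libraries, all 3 ages in one fit with a trended prior, and Benjamini-Hochberg adjustment over 9389 genes; ± beside a log2 change is its SE. A call needed an adjusted p below 0.05 with a log2 change of 1 or more in size, and changes are later minus earlier age. The same fit was repeated with each library centred on its median tested gene. The fit was also run on simulated independent genes, few of them changed, with no difference in scale between libraries. That run does not bear on the choice of scale. Within-library ratios used exact permutation tests (scipy 1.17.1).

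Depth was estimated from the steps that whole reads leave in low RPKM values of 179 single-transcript genes (GENCODE M21), searched from 5000000 to 18000000 reads: 10500000 to 11200000 reads per library at P1, 9460000 to 13600000 at P3 and 6280000 to 17200000 in adults. These are approximate, and no count test was run on them. The score of the fit, a mean cosine, ran from 0.154 (P1 replicate 4) to 0.410 (P1 replicate 1), and lower scores mark weaker estimates. It was 0.190, 0.323 and 0.214 for adult replicates 5, 6 and 7, whose estimates lie near the upper end of the search.

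The proteasome genes, the other gene lists and the motifs were chosen with earlier results of these data known. Genes given with values and test were the catalytic, immunoproteasome, activator, Psmf1 and Psmg genes and, in each other role group, the genes with the largest and smallest change; Psma2, Psmd9, Psmd10 and Psmd14 were named after their values were seen. Alternatives were other pseudocounts, filters and scalings, subsets of libraries and a replicate block. Subsets without P3 replicate 1 and adult replicate 4 together, and all refits on the centred scale, were chosen after seeing the data.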

Additional observations from a re-analysis of the deposited data

Results flagged for a closer look

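The highest or lowest value of a proteasome gene stood apart from the rest of its group in 18 of 84 groups tested, where the gap to the nearest library was a larger part of the group's range than Dixon's 95% critical value allows. The rate of about 1 in 20 by chance holds for independent tests, and these shared their libraries and used genes that vary together. The share flagged over all genes was not computed, so the count is not a result about proteasome genes. Adult replicate 4 was the high library in 16 of the 18. Its levels, in RPKM, were Psma1 69.3, Psma5 26.1, Psmb1 90.4, Psmb10 19.2, Psmb3 78.7, Psmb5 82.5, Psmb6 86.1, Psmb7 149.9, Psmc3 99.8, Psmc3ip 2.29, Psme2 41.3, Psme2b 8.43, Psmg1 13.4, Psmg2 20.3, Psmg3 6.84 and Psmg4 11.5. P1 replicate 1 was the highest P1 library for Psmc3ip, at 2.74 RPKM with the next at 1.19 RPKM. P3 replicate 4 was the highest P3 library for Psme2, at 43.9 RPKM with the next at 31.2 RPKM. Adult replicate 4 also had the smallest estimated depth of the 15 libraries, 6280000 reads, the highest adult sum over all listed genes (280112 against at most 195003 RPKM) and the highest adult sums of cardiomyocyte (28150 against at most 21250), endothelial (198.5 against 104.3), fibroblast (68.5 against 50.4), mural (77.0 against 69.5) and interferon and antigen presentation genes (291.4 against 162.4). The part of these in the values was not tested.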

How the results depend on the processing

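Over 63 single-gene results and 1365 refits of them, 1194 kept their direction and side of the threshold, 81 kept the direction and lost the call, 29 gained one and 61 changed sign. The scaling between libraries accounted for most of the sign changes. With each library centred on its median gene the log2 changes with a reversed sign against P1 were Psma1 0.30, Psmb1 0.20, Psmb10 0.19, Psmb6 0.0671, Psmb7 0.50, Psmc3 0.28, Psmc3ip 1.13, Psmd12 0.0721, Psme1 1.40, Psme2 0.75, Psme2b 0.89, Psmg1 0.0262, Psmg2 0.86 and Psmg4 0.37, and against P3 Psma1 0.61, Psmb1 0.53, Psmb10 0.80, Psmb3 0.14, Psmb5 0.41, Psmb6 0.62, Psmb7 1.10, Psmc3 0.75, Psmc3ip 1.07, Psmd12 0.38, Psmd4 0.0197, Psme1 1.42, Psme2 0.57, Psme2b 0.57, Psmg1 0.72, Psmg2 1.39 and Psmg4 0.68. Under quantile normalization they were, against P1, Psmb10 0.0546, Psmc3ip 0.85, Psme1 1.05, Psme2 0.52, Psme2b 0.89, Psmg2 0.72 and Psmg4 0.32, and against P3 Psmb10 0.67, Psmb7 0.28, Psmc3 0.0262, Psmc3ip 0.62, Psme1 0.92, Psme2 0.22, Psme2b 0.54, Psmg1 0.65, Psmg2 1.27 and Psmg4 0.63. With an equal RPKM sum per library they were Psmc3ip 0.14, Psme1 0.64, Psme2b 0.0689 and Psmg2 0.0789 against P1, and Psmb7 0.12, Psme1 0.44 and Psmg2 0.39 against P3. Of the 46 proteasome genes, those called lower and higher in adults were 0 and 3 against P1 and 0 and 5 against P3 after centring. They were 2 and 2 against P1 and 4 and 2 against P3 after quantile normalization, and 16 and 1 in both comparisons with equal sums. Of the 9389 tested genes, those called lower and higher against P1 were 1282 and 2032 (centred), 1639 and 1697 (quantile) and 3886 and 863 (equal sums). Against P3 they were 1797 and 2547 (centred) and 2342 and 2174 (quantile). Against P1 the share of proteasome genes called lay below that of all genes in either direction under each of these scalings. The same held against P3 after centring and after quantile normalization.

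In P3 against P1, all genes called higher became 248 with equal sums, 76 with a replicate block and 365 without both adult replicate 4 and P3 replicate 1. All genes called lower became 86 in a fit of those 2 groups alone, 107 with the block, 320 with adult replicates 1 to 4 only and 896 without both libraries. With adult replicates 5 to 7 only, the log2 change of Psme1 was 0.11 against P1 and 0.038 against P3, and relative to the median gene 2 genes (Psma5 and Psmg3) were called lower against P1, and 1 lower (Psmd5) and 3 higher against P3. With adult replicates 1 to 4 only, and likewise with the replicate block, 5 of the 46 genes were called higher against P1 on that scale. The shares of all genes called in these centred refits were not computed. In the full centred fit 21.6% of all genes were called higher and 13.7% lower against P1, and 27.1% and 19.1% against P3.

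Leaving out each library in turn, 38 to 40 of the 46 proteasome genes were called lower against P1, beside 5718 to 6027 of all 9389 genes. Against P3 the counts were 29 to 38, beside 5779 to 5987 of all genes. Relative to the median gene, proteasome genes called lower against P3 ranged from 0 to 1 (Psmd5, without P3 replicate 3 or 4). All genes in P3 against P1 ranged from 15 to 300 higher and from 60 to 889 lower, and each of the 8 neonatal libraries left out moved both counts by over 1.5 times. The log2 ratio of Psmb10 to Psmb7 in P3 against P1 ranged from -0.27 to 0.12, the log2 change of Psme1 against P1 from -0.22 to 0.059 (positive without adult replicate 1, 2 or 3), and that of Psmg2 against P3 from -0.31 to 0.0049 (without P3 replicate 1). The cause of these shifts was not tested.

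Replicate numbers recur in all 3 groups, and the labels do not say whether they pair the libraries. The deviations of same-numbered libraries correlated between -0.51 and 0.37, with no comparison above 0.1 in every pair. So few correlations cannot exclude a pairing, which remains unknown, and the main fit treated the libraries as unpaired. With the replicate block, 61 of 63 single-gene results were unchanged in call and 2 lost it. RPKM carries no counts, so counting error could not be entered in the tests, and genes with few estimated reads, such as Psmc3ip, are the least precise. Pseudocounts of 0.1 and 1, no filter and fits of the 2 compared groups changed the call of 1 single-gene result in all.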
